A study of Mus musculus with 8 samples.

Results

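To describe the receptors through which cells read immunoglobulin G (IgG), 7 genes were followed in left ventricular RNA of 8 mice: the Fc gamma receptor genes Fcgr1, Fcgr2b, Fcgr3 and Fcgr4, the adaptor genes Fcer1g and Tyrobp, and the kinase gene Syk. They were taken by gene symbol from 19933 genes measured on Affymetrix mouse gene arrays, and each of the 7 had 1 probe set. The 8 arrays, 1 per heart, were 2 from PlGF mice, 3 labelled PlGF/RGS4 and 3 from control mice, all C57/Bl6 and 11 weeks old. In these TET-OFF mice the alphaMHC promoter, which is active in cardiomyocytes, drove the activator tTA, which in turn switched on a PlGF transgene (placental growth factor, an angiogenic protein) or a PlGF together with an RGS4 transgene (a regulator of G protein signalling). Doxycycline in the diet kept the transgenes off until 5 weeks of age, and they were then expressed for 6 weeks. The control mice came from the same litters but lacked either the tTA gene or the gene it switches on, so nothing was induced in them.

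Fc gamma receptors bind the constant part of IgG and let phagocytes and other leukocytes respond to antibody-coated particles and immune complexes. In mice, Fcgr1 (high affinity), Fcgr3 and Fcgr4 are activating receptors that need the common gamma chain Fcer1g, whose cytoplasmic ITAM motif recruits the kinase Syk once it is phosphorylated, whereas Fcgr2b carries an ITIM motif and inhibits this signal. Tyrobp, also called DAP12, is an ITAM adaptor of other receptors of myeloid and NK cells that works through the same kinase. In the heart these genes are known mainly from resident and recruited macrophages. The RNA came from whole ventricle, so more receptor-bearing cells and more RNA per such cell cannot be told apart here.

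The label of the transgene was checked on Pgf, the gene for placental growth factor. Its intensity was 4136.3 and 916.6 in PlGF arrays, against 300.0, 229.0 and 210.8 in the arrays labelled PlGF/RGS4 and 211.1, 348.9 and 387.1 in control arrays. Rgs4 was 235.0 and 194.9 in PlGF arrays, 233.7, 186.9 and 229.3 in the arrays labelled PlGF/RGS4 and 209.5, 277.1 and 281.5 in control arrays. Neither gene stood above control in the arrays labelled PlGF/RGS4, so these arrays are called by their label throughout, and a comparison with them is with the arrays so labelled. Whether the probe sets read the transgene transcripts is not stated in the sources used here. The median intensity of the 8 arrays lay between 111.1 and 115.2. The 8 cardiomyocyte markers, among them Tnnt2 and Tnni3, summed to 94448.4 to 108979.1 in PlGF arrays, to 108533.3 to 108983.8 in the arrays labelled PlGF/RGS4 and to 109595.3 to 110647.6 in control arrays, with no marker at 0. PlGF replicate 1 stood apart from the other 7 arrays: averaged over the arrays outside its own group, its correlation was 0.974, and that of the other arrays 0.9906 to 0.993. Xist, the long non-coding RNA that silences an X chromosome, was low in PlGF replicate 1 (26.9), in replicate 2 labelled PlGF/RGS4 (36.1) and in control replicate 2 (50.8), and lay between 2580.8 and 2958.5 in the other 5 arrays, so every group held arrays of both kinds.

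The promoters of the 4 receptor genes are shown because these genes lie in 1 family but differed in how far their signal moved. Each sequence runs from 250 bases before to 50 bases after the annotated start, 300 bases in all, on the gene's own strand, from RefSeq on GRCm38.p6. Capitals mark matches to GAGGAAG (the core bound by the myeloid factor PU.1), TTCNNNGAA (the gamma-activated site of STAT factors) or GAAA followed after any 2 bases by a further GAAA (the interferon response element), searched on both strands. The motifs were chosen after the sequences had been seen.
Fcgr1, chr3:96293920-96294219, minus strand: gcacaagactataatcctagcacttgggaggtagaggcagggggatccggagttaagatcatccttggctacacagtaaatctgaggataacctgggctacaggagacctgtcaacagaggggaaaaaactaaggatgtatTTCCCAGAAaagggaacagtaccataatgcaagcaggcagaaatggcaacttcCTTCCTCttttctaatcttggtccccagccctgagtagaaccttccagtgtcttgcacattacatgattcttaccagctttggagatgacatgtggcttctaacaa
Fcgr3, chr1:171059354-171059653, minus strand: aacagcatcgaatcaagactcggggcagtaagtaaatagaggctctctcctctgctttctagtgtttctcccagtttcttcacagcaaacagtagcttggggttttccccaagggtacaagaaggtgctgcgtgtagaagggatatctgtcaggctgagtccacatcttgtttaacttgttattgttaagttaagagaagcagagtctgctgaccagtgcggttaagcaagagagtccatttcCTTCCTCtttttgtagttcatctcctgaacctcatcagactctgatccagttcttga
Fcgr4, chr1:171018676-171018975, plus strand: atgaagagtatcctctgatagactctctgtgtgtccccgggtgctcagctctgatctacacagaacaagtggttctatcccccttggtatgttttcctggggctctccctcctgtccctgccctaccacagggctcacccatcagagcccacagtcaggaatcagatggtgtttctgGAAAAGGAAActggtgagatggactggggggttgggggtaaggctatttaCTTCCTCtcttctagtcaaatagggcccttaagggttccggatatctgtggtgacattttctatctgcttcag
Fcgr2b, chr1:170976022-170976321, minus strand: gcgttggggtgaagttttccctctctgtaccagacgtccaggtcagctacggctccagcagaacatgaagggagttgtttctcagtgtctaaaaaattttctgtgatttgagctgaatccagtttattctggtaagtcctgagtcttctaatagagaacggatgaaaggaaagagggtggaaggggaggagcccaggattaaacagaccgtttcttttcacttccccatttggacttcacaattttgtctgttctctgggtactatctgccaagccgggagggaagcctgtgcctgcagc

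Counted back from the start, with the base before it at -1, the PU.1 core stood at -23 to -17 in Fcgr4, at -7 to -1 in Fcgr3 and at -56 to -50 in Fcgr1, each time on the opposite strand and so printed as its reverse complement. Of 32851 mouse promoter windows of this length, 13.6% held it. Fcgr4 also held the interferon response element at -73 to -64, as did 3.44% of all windows, and Fcgr1 held the gamma-activated site at -109 to -101, as did 8.3%. None of the letters searched for were found in the windows of Fcgr2b, Fcer1g or Syk. Fcgr3 has a further annotated start, for which the same match stands at -16 to -10. These matches describe the sequence only. A promoter window was found for 6 of the 7 genes. Tyrobp was not among them.

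To investigate whether the receptors and their signalling partners differed after 6 weeks of PlGF expression, PlGF arrays were compared with control arrays. Fcgr4 and Tyrobp rose, with an adjusted p under 0.05 in limma. All 7 genes were higher in both PlGF arrays than in every control array, but for Fcgr1, Fcgr2b, Fcgr3, Fcer1g and Syk the change did not pass the test, and the 2 PlGF hearts differed widely. Thus 2 of the 7 genes were called higher and 0 lower, where 1.79% of the 19933 genes were called higher and 0.748% lower, and 6 of 7 had an unadjusted p under 0.05 with a higher level, where 10.9% of all genes had. Separation of the arrays is a weaker mark, since 14.3% of all genes had both PlGF arrays above all 3 control arrays and 19.5% had both below. The median change over the 7 genes was 1.39 on the log2 scale, against -0.03 over all genes. Of the 505 genes called in this comparison, 70.5% were higher. When each array was centred on its median instead, 693 were called and 54.3% were higher.

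**Figure D1:**
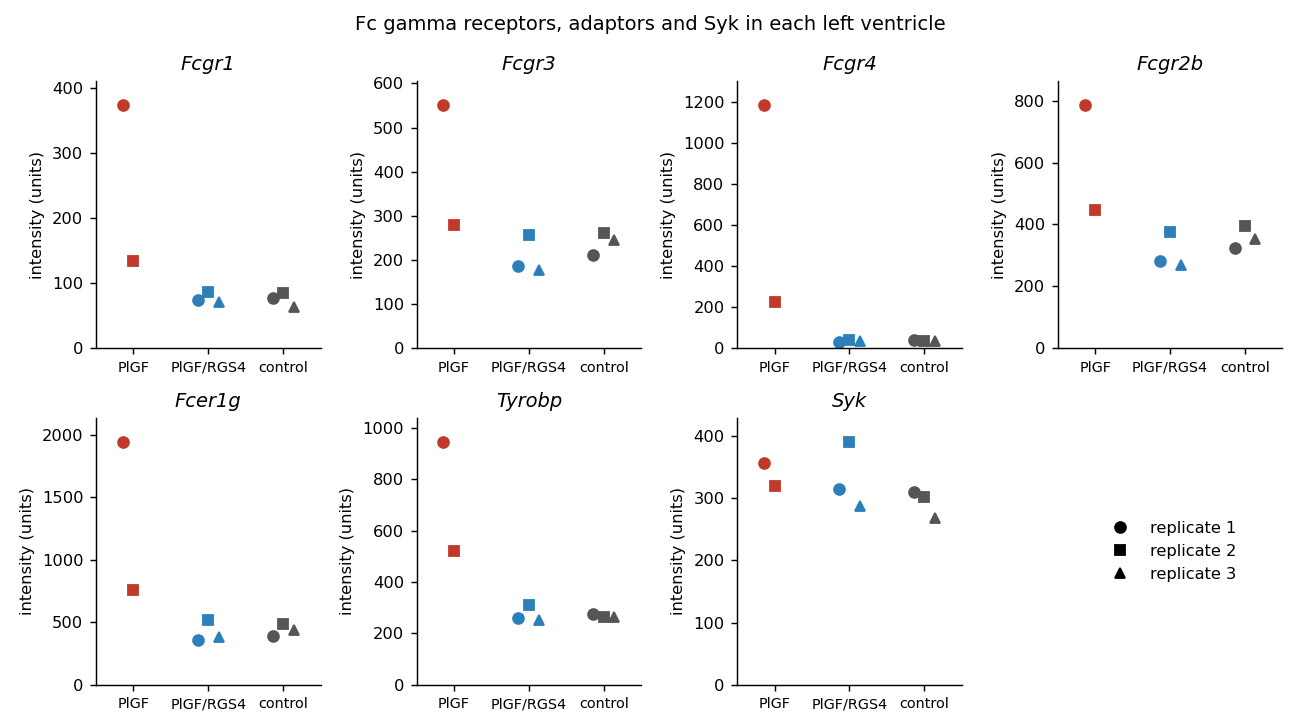
Intensity (linear axis from 0, own scale in each panel) of the 7 genes in each array: 2 PlGF, 3 labelled PlGF/RGS4 and 3 control arrays, with the replicate number as the marker. PlGF replicate 1 is the highest of the 8 arrays for every gene but Syk, where replicate 2 labelled PlGF/RGS4 is higher (390.1 against 355.7).

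Fcgr4, an activating receptor of mouse monocytes, macrophages and neutrophils, had an intensity of 1184.8 and 226.8 in PlGF arrays, against 37.9, 37.0 and 34.3 in control arrays. Both PlGF hearts were far above the narrow control range, and the control values lay below the median intensity of their arrays. Relative to the control mean, PlGF replicate 1 was 31.7-fold and PlGF replicate 2 was 6.10-fold. The log2 fold change was 3.80 ± 0.58 (SE; 13.9-fold, 95% interval 5.48 to 35.3), with an adjusted p of 0.0263 in limma. Like every such comparison of 2 against 3 arrays, its exact permutation test (two-sided) could not give a p under 0.1, which it reached. The call held when either PlGF array was left out, with a log2 change of 2.61 (adjusted p = 0.00121, limma) without replicate 1 and 4.99 (adjusted p = 2.89e-05) without replicate 2, where the remaining PlGF heart is assumed to vary like the other groups. It was lost when any other single array was left out, at an adjusted p of 0.0864, 0.107 and 0.112 without control replicates 1, 2 and 3 and of 0.0693, 0.0622 and 0.0758 without replicates 1, 2 and 3 labelled PlGF/RGS4, and with the methods' t-test after adjustment (0.523).

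Fcgr1, the high-affinity receptor for monomeric IgG, had 373.9 and 134.9 in PlGF arrays, against 77.1, 85.4 and 62.9 in control arrays. Both PlGF values exceeded the control range, by 1.58-fold for the lower of the 2. The log2 fold change was 1.58 ± 0.37 (2.99-fold, 95% interval 1.64 to 5.45; adjusted p = 0.0708, limma), just outside the threshold. Fcgr3, the low-affinity activating receptor that is also the Fc gamma receptor of mouse NK cells, had 550.5 and 279.8 in PlGF arrays, against 211.6, 261.6 and 245.5 in control arrays. Only PlGF replicate 1 stood clear of control here, since replicate 2 was 1.07-fold the highest control value. Its log2 fold change was 0.72 ± 0.28 (1.64-fold, 95% interval 1.04 to 2.59; adjusted p = 0.190, limma). Without PlGF replicate 2 the log2 change was 2.31 for Fcgr1 and 1.2 for Fcgr3, and without PlGF replicate 1 it was 0.85 and 0.23.

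Fcgr2b, the inhibitory receptor, had 785.5 and 446.5 in PlGF arrays, against 323.4, 394.0 and 354.2 in control arrays. The picture was that of Fcgr3, with replicate 2 only 1.13-fold the highest control value. The log2 fold change was 0.73 ± 0.24 (1.66-fold, 95% interval 1.12 to 2.46; adjusted p = 0.137, limma). Without PlGF replicate 2 the log2 change was 1.14, and without PlGF replicate 1 it was 0.33. Fcgr2b and Fcgr3 have closely similar extracellular parts, and the probe sequences were not used here, so part of the signal of 1 probe set may come from the other gene's transcript.

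The ratio of receptors within an array does not depend on its overall scaling. Relative to the control mean, the log2 ratio of Fcgr4 over Fcgr2b was 2.28 to 3.85 in PlGF arrays, against -0.12 to 0.20 in control arrays, and that of Fcgr1 over Fcgr2b was 0.52 to 1.17 against -0.23 to 0.19. In each the PlGF arrays lay above all control arrays, by 3.07 and 0.85 on average (two-sided exact permutation p = 0.1 each, the smallest these arrays can give). The activating Fcgr4 and Fcgr1 thus had a larger change than the inhibitory receptor in both PlGF hearts. The ratio of Fcgr3 over Fcgr2b was -0.10 to 0.06 in PlGF arrays and -0.03 to 0.05 in control arrays, a difference of -0.02 (exact permutation p = 1.0). Fcgr4 also moved more than Fcgr1, with a ratio of 1.76 to 2.68 in PlGF arrays against -0.17 to 0.16 in control arrays (mean difference 2.22, exact permutation p = 0.1). In all, 7 such ratios were compared for each pair of groups, and no p could fall below 0.1 before or after adjustment.

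**Figure D2:**
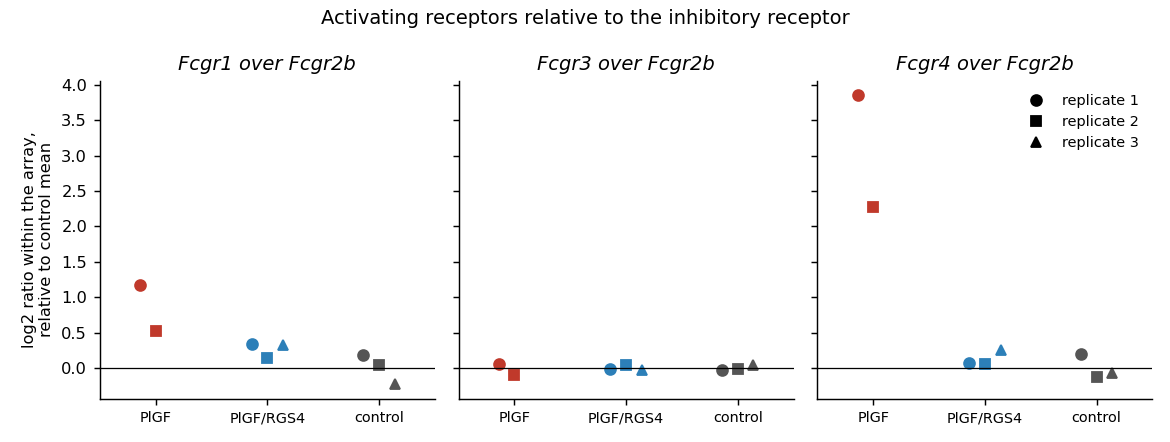
Log2 ratio of Fcgr1, Fcgr3 and Fcgr4 to the inhibitory Fcgr2b within each array, set to a mean of 0 in control (vertical axis), for 2 PlGF, 3 PlGF/RGS4-labelled and 3 control arrays. Fcgr4 over Fcgr2b is 2.28 and above in PlGF arrays, and Fcgr3 over Fcgr2b stays between -0.10 and 0.06 in all 8 arrays.

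Of the adaptors, Tyrobp had 945.6 and 520.0 in PlGF arrays, against 274.3, 264.7 and 262.5 in control arrays. The control values were nearly equal and both PlGF values lay well above them, 3.53-fold and 1.94-fold the control mean. The log2 fold change was 1.39 ± 0.22 (2.62-fold, 95% interval 1.83 to 3.75), with an adjusted p of 0.0299 in limma. The call held at a log2 change of 0.96 without PlGF replicate 1 (adjusted p = 0.0157) and of 1.82 without replicate 2 (adjusted p = 0.000183). It was lost without control replicates 1, 2 and 3 (adjusted p = 0.0922, 0.116 and 0.124), without replicates 1, 2 and 3 labelled PlGF/RGS4 (0.0778, 0.0622 and 0.0802), and with the methods' t-test after adjustment (0.523).

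Fcer1g, the gamma chain that the activating Fc gamma receptors need, had 1940.9 and 758.5 in PlGF arrays, against 386.5, 484.0 and 436.8 in control arrays. Both PlGF hearts were above the control range. The log2 fold change of 1.48 ± 0.36 (2.79-fold, 95% interval 1.56 to 4.99) had an adjusted p of 0.0732 in limma, and of 0.000953 without PlGF replicate 2 and 0.170 without PlGF replicate 1. The ratio of Fcer1g to Tyrobp did not separate the groups (-0.15 to 0.34 in PlGF arrays and -0.20 to 0.17 in control arrays; exact permutation p = 0.7). Hcst, the adaptor DAP10, which carries no ITAM, had 90.8 in both PlGF arrays and 86.8 to 90.8 in control arrays, a log2 change of 0.02 ± 0.05 (adjusted p = 0.811). The same 90.8 recurred in control replicates 1 and 2 and in replicate 1 labelled PlGF/RGS4. Equal values across arrays also occurred in other genes. Tnni3 was 14400.5 in control replicates 1 and 2 and in PlGF replicate 2, and Aif1 was 51.5 in all 3 arrays labelled PlGF/RGS4. Whether this probe set responds to its transcript was not tested.

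Syk, the kinase downstream of both adaptors, had 355.7 and 319.9 in PlGF arrays, against 309.2, 302.2 and 268.4 in control arrays. The lower PlGF value was 1.03-fold the highest control value. Its log2 fold change was 0.20 ± 0.13 (1.15-fold, 95% interval 0.932 to 1.42; adjusted p = 0.388, limma), so an increase of up to 1.42-fold was within the interval. Syk is also made by cells other than leukocytes, and its signal in whole ventricle includes all of them.

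**Figure D3:**
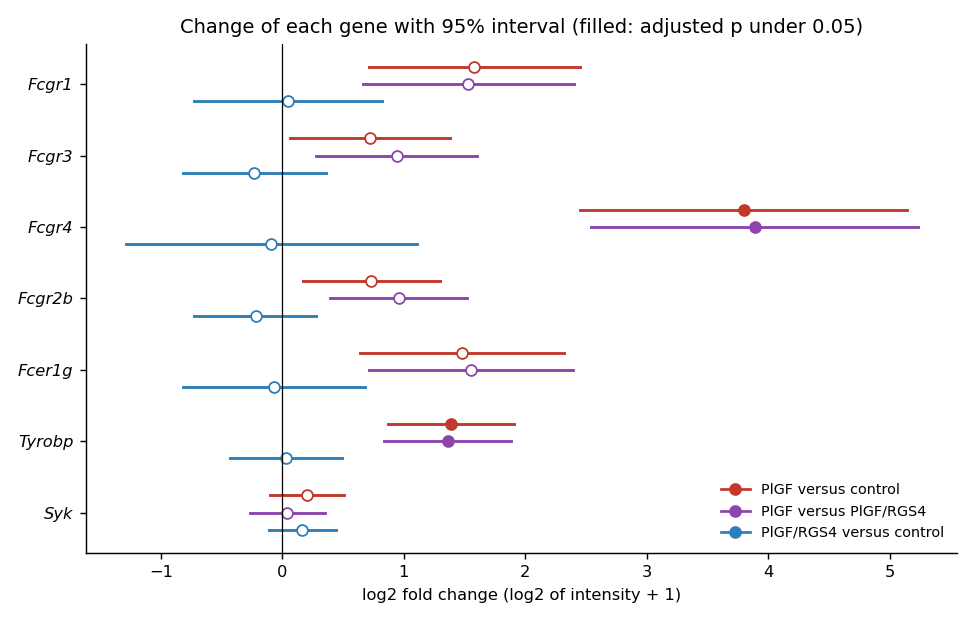
Log2 fold change of the 7 genes (horizontal axis) with its 95% interval from the fit to all 8 arrays, for PlGF versus control, PlGF versus PlGF/RGS4 and PlGF/RGS4 versus control; filled points have an adjusted p under 0.05. Fcgr4 and Tyrobp are filled in both comparisons of PlGF and in no other, and Syk lies near 0 in all of them.

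The arrays labelled PlGF/RGS4 were then compared with the same control arrays. None of the 7 genes was called in limma (0 also at an unadjusted p under 0.05, where 2.74% of all genes were higher and 2.28% lower, and 0 with the methods' t-test after adjustment), where 0.0151% of all genes were called higher and 0.00% lower, and in none did the arrays separate, where 6.96% of all genes were higher and 5.85% lower without overlap. Fcgr4 had 30.0, 40.0 and 33.0 in the arrays labelled PlGF/RGS4, against 37.9, 37.0 and 34.3 in control arrays, a log2 change of -0.09 ± 0.51. Tyrobp had 259.4, 309.0 and 253.8 against 274.3, 264.7 and 262.5, a change of 0.03 ± 0.20. The groups overlapped in both genes. Fcer1g, with 361.7, 517.1 and 378.8 in the arrays labelled PlGF/RGS4 against 386.5, 484.0 and 436.8 in control arrays, had a change of -0.07 ± 0.32, and Fcgr1, with 74.6, 86.2 and 71.0 against 77.1, 85.4 and 62.9, one of 0.05 ± 0.33. Fcgr2b (281.3, 374.1 and 269.3 against 323.4, 394.0 and 354.2) and Fcgr3 (186.2, 256.9 and 176.5 against 211.6, 261.6 and 245.5) had changes of -0.22 ± 0.22 and -0.23 ± 0.25. The 95% intervals of the fold ran from 0.408 to 2.16 for Fcgr4 and from 0.741 to 1.41 for Tyrobp. They rest on 1 spread shared by all 3 groups, so the gap between the 2 PlGF hearts widens them. The SD of the intensity of Fcgr4 was 5.13 in the arrays labelled PlGF/RGS4 and 1.87 in control arrays, against 677 in PlGF arrays. For Tyrobp it was 30.4 and 6.27, against 301. Syk, with 314.6, 390.1 and 287.8 in the arrays labelled PlGF/RGS4 against 309.2, 302.2 and 268.4 in control arrays, had a change of 0.16 ± 0.12 (adjusted p = 0.995), and the others had an adjusted p of 0.998.

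The change in PlGF arrays was also set directly against the arrays labelled PlGF/RGS4, a comparison that shares the PlGF arrays with the one against control. Fcgr4 was higher in PlGF by 3.89 ± 0.58 on the log2 scale (adjusted p = 0.0325, limma) and Tyrobp by 1.36 ± 0.22 (adjusted p = 0.0421), so 2 of 7 genes were called higher and 0 lower, where 1.10% of all genes were called higher and 0.0853% lower. Fcer1g differed by 1.55 ± 0.36 (adjusted p = 0.0966), Fcgr1 by 1.53 ± 0.37 (0.107), Fcgr2b by 0.96 ± 0.24 (0.116) and Fcgr3 by 0.94 ± 0.28 (0.155), none of which passed. In these 6 genes both PlGF arrays lay above all 3 arrays labelled PlGF/RGS4, where 12.6% of all genes did and 19.9% had both below, and all 6 had an unadjusted p under 0.05, as 8.95% of all genes had in this direction. Syk overlapped between the groups, at 0.04 ± 0.13 (adjusted p = 0.894). The calls of Fcgr4 and Tyrobp were lost without any single control array (adjusted p 0.0908, 0.0912 and 0.0927 for Fcgr4 and 0.111, 0.114 and 0.108 for Tyrobp, without control replicates 1, 2 and 3) or any single array labelled PlGF/RGS4 (0.152, 0.113 and 0.159, and 0.181, 0.118 and 0.177, without its replicates 1, 2 and 3). Without PlGF replicates 1 and 2 the log2 changes were 2.7 and 5.08 for Fcgr4, and 0.93 and 1.79 for Tyrobp. The 1 PlGF heart then left gives no spread, so these fits cannot show whether the calls hold.

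The level of the 7 genes differed between the hearts of a group. PlGF replicate 1 was the higher PlGF array for 7 of 7 genes, by 5.21-fold over replicate 2 for Fcgr4, 2.76-fold for Fcgr1, 2.56-fold for Fcer1g, 1.96-fold for Fcgr3, 1.82-fold for Tyrobp, 1.76-fold for Fcgr2b and 1.11-fold for Syk. Pgf itself was 4.51-fold higher in replicate 1 than in replicate 2. Replicate 2 was the highest of the arrays labelled PlGF/RGS4 for 7 of 7 genes, and control replicate 2 the highest control array for 4 of 7. These 3 arrays are those with low Xist. With the log2 Xist level as a covariate, an alternative added after the data had been seen, 4 of the 7 genes were called higher in PlGF than in control: Fcgr4 (3.60 ± 0.47, adjusted p = 0.0224, limma), Tyrobp (1.31 ± 0.17, 0.0228), Fcer1g (1.33 ± 0.22, 0.0390) and Fcgr1 (1.43 ± 0.26, 0.0485). Fcgr2b (0.62 ± 0.12, 0.0522) and Fcgr3 (0.59 ± 0.16, 0.105) did not pass. Under this setting 377 of the 19933 genes were called higher. Among PlGF arrays low Xist marks only replicate 1, so the covariate cannot be told apart from the gap between the 2 PlGF hearts. Split by Xist, also after the data had been seen, each kind of array held a single PlGF array, which allows no test. Among arrays of high Xist, PlGF replicate 2 had 226.8 for Fcgr4 against 37.9 and 34.3 in control, and 279.8 for Fcgr3 against 211.6 and 245.5. Among those of low Xist, PlGF replicate 1 had 1184.8 for Fcgr4 against 37.0 in control, and 550.5 for Fcgr3 against 261.6. The part of what Xist marks in the changes was not tested further.

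Markers of macrophages, T cells and NK cells were in part higher in the same arrays as the receptors. Beside the counts of calls in each list below, 1.79% of all genes were called higher in PlGF over control and 0.748% lower. Of 14 macrophage and monocyte markers 5 rose in PlGF over control (Ccr2 by 2.51 ± 0.24, Mpeg1 by 2.67 ± 0.40, Aif1 by 1.46 ± 0.23 and Lyz2 by 0.94 ± 0.18 on the log2 scale, and Ms4a7, named after its value was seen), 0 fell, and the median change was 1.07, with a range of -0.69 to 2.67. At an unadjusted p under 0.05 in limma, 9 of the 14 were higher and 2 lower, where 10.9% and 11.7% of all genes were. Their summed intensity was 7647.2 to 12376.2 in PlGF arrays, 4793.6 to 6323.8 in the arrays labelled PlGF/RGS4 and 5741.6 to 6088.2 in control arrays, and no marker was at 0 in any array. The median marker stood 1.45 above its control mean in PlGF replicate 1 and 0.66 above in replicate 2, against -0.21 to 0.18 in the arrays labelled PlGF/RGS4 and -0.08 to 0.06 in control arrays. Set against that median in the same array, Fcgr4 was higher by 3.53 and 1.95 in PlGF replicates 1 and 2, and by -0.03 to 0.08 in control arrays. Tyrobp was 0.37 and 0.30 above it, Fcer1g 0.71 and 0.14 and Fcgr1 0.86 and 0.18. Markers of the list also stood far above its median: relative to the control mean, Mpeg1 was at 3.39 and 1.95 and Ccr2 at 2.95 and 2.08, against 4.99 and 2.61 for Fcgr4. Fcgr2b (-0.31 and -0.34), Fcgr3 (-0.25 and -0.43) and Syk (-1.17 and -0.53) lay below it in both PlGF arrays. The part of the macrophage markers in the change of each receptor was not tested.

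Markers of the other cell types that the ventricle could hold were described in the same way. Of 9 T cell markers 7 rose in PlGF over control, among them Cd2 (1.10 ± 0.06), Cd4 (0.61 ± 0.08), Cd3g (3.03 ± 0.45) and Cd8a (2.21 ± 0.37), and 0 fell; their summed intensity was 1074.7 to 2196.6 in PlGF, 566.6 to 601.3 in PlGF/RGS4-labelled and 596.6 to 611.2 in control arrays. Of 8 NK cell markers 4 rose, namely Nkg7 (4.63 ± 0.43), Gzma (1.13 ± 0.12), Ncr1 (1.21 ± 0.14) and Prf1 (1.01 ± 0.19), and 0 fell; these summed to 968.3 to 2506.2 in PlGF, 227.8 to 263.3 in PlGF/RGS4-labelled and 251.5 to 261.8 in control arrays. Of 6 dendritic cell markers Flt3 (0.51 ± 0.07) and Itgax (2.04 ± 0.32) rose, with sums of 605.6 to 1295.5 in PlGF, 374.1 to 413.3 in PlGF/RGS4-labelled and 375.2 to 423.2 in control arrays. None of 10 neutrophil, 6 B cell or 7 mast cell markers passed the test. The neutrophil markers summed to 419.6 to 439.8 in PlGF, 411.3 to 534.7 in PlGF/RGS4-labelled and 404.2 to 423.3 in control arrays, the B cell markers to 298.2 to 323.2, 262.9 to 303.9 and 287.9 to 299.9, and the mast cell markers to 501.7 to 534.8, 441.2 to 463.7 and 424.4 to 549.3, in that order of groups. At an unadjusted p under 0.05 in limma, 1 neutrophil marker was higher and 1 lower, 0 B cell markers differed, and 1 mast cell marker was higher and 2 lower, where 10.9% of all genes were higher and 11.7% lower. Of 8 endothelial markers 1 rose (Cdh5, 0.30 ± 0.05). At an unadjusted p under 0.05 in limma, 3 endothelial markers were higher and 1 lower (Vwf, -0.74 ± 0.27). Of 7 fibroblast and 8 cardiomyocyte markers none passed. By the same unadjusted mark 3 fibroblast markers were higher and 2 cardiomyocyte markers lower.

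**Figure D4:**
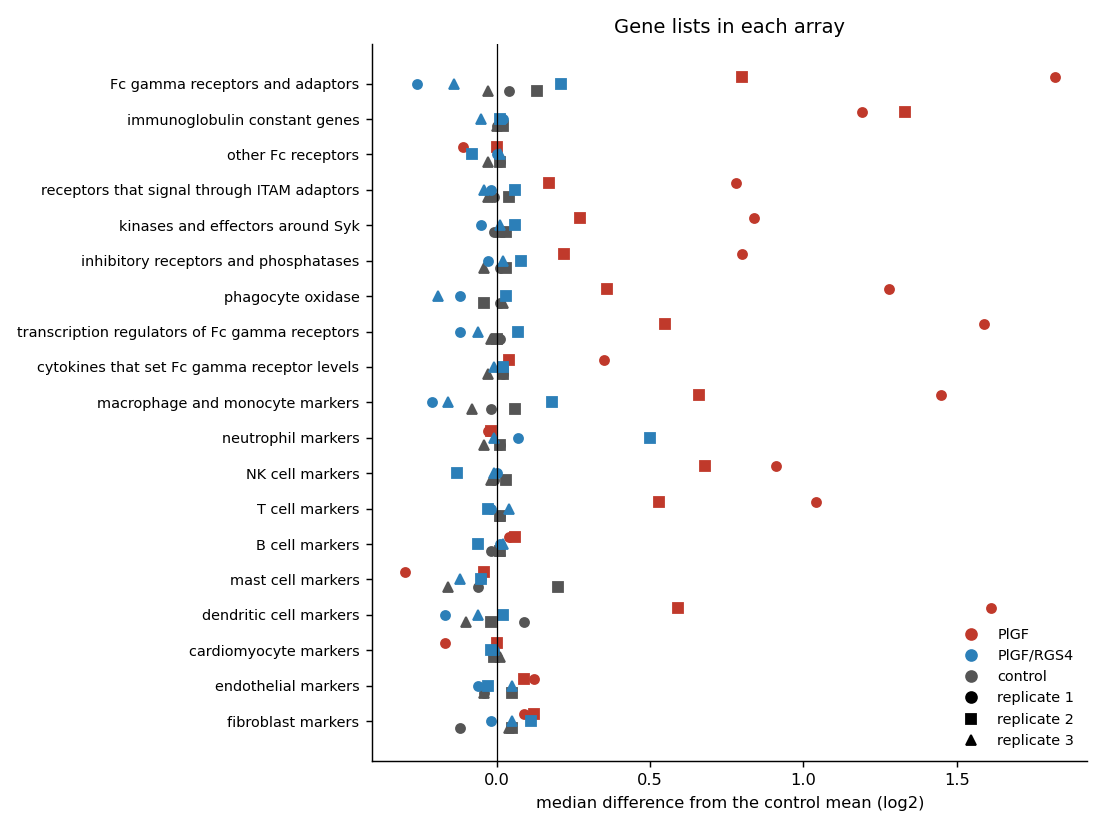
Median difference from the control mean (log2, horizontal axis) of the 7 genes and of 18 gene lists in each array, with colour for the group and marker shape for the replicate. The macrophage markers stand at 0.66 and 1.45 in PlGF arrays and the 7 genes at 0.80 and 1.82, while the neutrophil, B cell and mast cell markers lie below 0.10 in both PlGF arrays.

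Immunoglobulin genes were measured in part, and of these only the IgG heavy chains encode ligands of the Fc gamma receptors. Of 12 immunoglobulin constant genes listed, 4 were measured, and Igha (2.78 ± 0.24 log2, adjusted p = 0.00549, limma) and Jchain, the joining chain of secreted IgA and IgM (3.16 ± 0.34, adjusted p = 0.0143), rose in PlGF over control. Igha had 173.6 and 336.1 in PlGF arrays, against 35.9, 32.7 and 34.2 in control arrays, so here replicate 2 was the higher. Ighg3, the measured IgG heavy chain, had 17.6 and 19.2 in PlGF arrays, against 16.6, 17.0 and 16.3 in control arrays, with no call. These values lay well below the median intensity of the arrays, where a change is hard to see. Immunoglobulin genes are a family of similar sequences, so their probe sets may share signal. Of 13 other Fc receptors measured none was called, and 1 had an unadjusted p under 0.05 in limma. The nearest was Trim21, the cytosolic Fc receptor, at 1.21 ± 0.28 (adjusted p = 0.0672).

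Of 20 measured receptors that signal through ITAM adaptors or beside them, 4 rose and 0 fell, with a median change of 0.46: Klrk1 (1.51 ± 0.17) and Ncr1 (1.21 ± 0.14), activating receptors of NK cells, Clec7a, the beta-glucan receptor Dectin-1, and Itgb2, the common chain of leukocyte integrins (1.82 ± 0.35). Clec7a had 142.1 and 95.5 in PlGF arrays, against 46.2, 53.0 and 53.0 in control arrays. Around Syk, 34 kinases and effectors were measured, of which 8 rose and 1 fell, with a median of 0.54. Those that rose included the Src-family kinase gene Fgr (0.77 ± 0.11), the adaptors Lat (0.95 ± 0.12) and Lcp2 (2.05 ± 0.27), which assemble signalling complexes in T cells and, for Lcp2, in myeloid cells, and the actin regulator Coro1a (1.28 ± 0.18). Pik3r1, a regulatory subunit of PI3-kinase, named after its value was seen, fell.

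Of 24 inhibitory receptors and phosphatases, 2 rose and 0 fell, with a median of 0.48: Clec12a, an ITIM receptor of myeloid cells, and Cd72 (2.87 ± 0.47), an ITIM receptor best known from B cells. Clec12a had 890.4 and 327.1 in PlGF arrays, against 81.6, 65.9 and 66.3 in control arrays, with no overlap. Inpp5d, the lipid phosphatase SHIP1 that Fcgr2b recruits, changed by 0.81 ± 0.25 (adjusted p = 0.119), and Ptpn6, the phosphatase SHP-1, by 1.09 ± 0.24 (adjusted p = 0.0604), without passing. Of 4 measured subunits of the phagocyte oxidase, which makes superoxide after Fc receptor engagement, Cybb rose (1.98 ± 0.29) and Ncf1 (0.66 ± 0.15, adjusted p = 0.0661) did not pass. Cybb had 2055.9 and 910.3 in PlGF arrays, against 369.0, 333.5 and 335.3 in control arrays.

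Among 11 measured regulators of Fc gamma receptor genes, 4 rose and 1 fell, with a median of 1.07. They were the interferon regulatory factors Irf1, Irf7 and Irf8 and, named after its value was seen, Irf9. Irf1 had 2088.8 and 1051.4 in PlGF arrays, against 348.3, 351.4 and 286.0 in control arrays, and Irf8, a factor of the myeloid lineage, had 970.0 and 414.3 against 154.2, 143.1 and 160.3. Both were several-fold above control in each PlGF heart. Cebpb fell by 0.67 ± 0.13 (adjusted p = 0.0438). Of 10 cytokines and receptors that set Fc gamma receptor levels, Tnf rose (1.32 ± 0.18). Ifng, the gene for interferon gamma, which raises the activating receptors in macrophages, had 247.7 and 92.0 in PlGF arrays, against 48.6, 43.6 and 45.9 in control arrays, and stayed just outside the threshold (1.69 ± 0.34, adjusted p = 0.0526, limma). Of the 201 genes of the lists, 0 were called when the PlGF/RGS4-labelled arrays were set against control in limma. Of all genes 0.0151% were called higher there and 0.00% lower. At an unadjusted p under 0.05 in limma, 2 of the 201 were higher and 5 lower, where 2.74% and 2.28% of all genes were.

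The counts of calls in the lists changed with single arrays. Without any single control array or array labelled PlGF/RGS4, between 0 and 3 genes of a list were called in PlGF versus control. Without PlGF replicate 1, 3 of 14 macrophage markers, 5 of 9 T cell markers, 8 of 34 genes around Syk and 6 of 11 regulators were called, and without PlGF replicate 2 these were 11, 8, 29 and 10. Lists with few or no calls moved as well: without PlGF replicate 2, 5 of 7 fibroblast, 4 of 8 cardiomyocyte, 5 of 8 endothelial, 3 of 7 mast cell, 2 of 10 neutrophil and 1 of 6 B cell markers were called, against 0, 0, 1, 0, 0 and 0 with all arrays. Of NK cell and dendritic cell markers 6 and 4 were then called, against 4 and 2. The genes called under each setting were not compared by name.

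The chromosomal neighbours of the receptors were then examined. Fcgr2b, Fcgr4, Fcgr3 and Fcer1g lie near each other on mouse chromosome 1, and in annotation order 11 measured genes stand from Fcgr2b to Fcer1g, 4 of them the receptors and the gamma chain and 7 others, among them the succinate dehydrogenase gene Sdhc, the nuclear receptor gene Nr1i3 and the apolipoprotein gene Apoa2. The 7 others changed by -0.41 to 0.13 on the log2 scale in PlGF over control, and 0 of them passed the test (lowest adjusted p = 0.0879, limma; 3 were lower at an unadjusted p under 0.05, as were 11.7% of all genes). Fcgr4, flanked in this order by Fcgr3 and a predicted gene at -0.08 ± 0.07, had the largest change of these 11 genes.

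The genes whose pattern over the 8 arrays was nearest to each receptor were found by the mean absolute difference of their log2 deviations from control. For Fcgr4 they were Irgm1, an interferon-inducible GTPase (0.232), Dnase1l3, a secreted DNase (0.239), and Jchain (0.253), each farther off than the nearest genes of the other 6. Dnase1l3 had 473.9 and 198.8 in PlGF arrays, against 27.1, 27.2 and 23.1 in control arrays. Fcgr1 was nearest to Rnase6 (0.0754), Tigit (0.0839) and Rasgrp1 (0.0900). Fcgr2b and Fcgr3 had the same 3 nearest genes, Gbgt1, Ifi207 and Ptprj, at 0.0690, 0.0859 and 0.0962 for Fcgr2b and 0.0815, 0.0869 and 0.0972 for Fcgr3. Fcer1g was nearest to the lysosomal membrane gene Laptm5 (0.0522), Aoah (0.0612) and the macrophage marker Adgre1 (0.0693). Tyrobp was nearest to Trim30a (0.0568), Eif2ak2 (0.0589), the RNA-activated kinase PKR, and Tmem229b (0.0640). Syk, with little change, was nearest to Hivep3 (0.0450), Pdpn (0.0453) and Dnah6 (0.0453). These likenesses are descriptions over 8 arrays that include the 2 PlGF arrays in which nearly all of the change lies.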

How the data were processed

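Left ventricular RNA of 8 mice was hybridised to Affymetrix Mouse Gene ST arrays after labelling with the Ambion WT kit. The deposited intensity values are MAS5 output, which the authors obtained with Affymetrix settings and global scaling. They are linear, 1 per probe set, from 7.1 to 21704, and had been scaled to 1 level, so only differences relative to the rest of the array are seen. No background or detection column was used here, and the number of arrays limits the precision. Of 28440 probe sets, 21780 with 1 symbol were kept, 1618 with several and 5042 with none were left out, and the brightest probe set of a gene was taken, which gave 19933 genes. All 8 columns were used. The intensity plus 1 was put on the log2 scale, so fold changes of dim genes are understated.

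Groups were those of the labels, which call the arrays biological replicates. The 3 comparisons came from a single limma fit (version 3.58.1, R 4.3.3, lmFit and eBayes) of 3 group means on the 8 arrays, and p-values were adjusted by Benjamini-Hochberg over the 19933 genes (threshold 0.05). Its script was tested on simulated data in which every group had the same spread, so a wider spread in PlGF arrays was not covered. SE and 95% intervals are limma's on the log2 scale. Exact permutation tests were two-sided. Named genes were the 7 genes, Pgf, Rgs4, Xist, direct partners, the 4 genes of each list with the smallest p, and the 3 nearest in pattern. The members and lists were chosen with earlier results of these data known. Of 220 entries in the 18 lists, 203 were measured, 201 genes in all.

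Alternatives were quantile normalization, median centring, a fit to genes above the median level only, every probe set, the mean of probe sets, a pseudocount of 16, a trended robust prior, array weights, only the groups compared, the methods' t-test, a one-way ANOVA spread, a replicate block, leaving out each array and, added later, Xist as a covariate. Promoter sequences and neighbour order came from RefSeq (GRCm38.p6). The array's own build is not given in the sources used here.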

Additional observations from a re-analysis of the deposited data

Results flagged for a closer look

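The effect in PlGF arrays differed from that in the arrays labelled PlGF/RGS4 by a direct test for 2 of the 7 genes. For Fcgr4 the log2 change over control was 3.80 in PlGF arrays and -0.09 in those labelled PlGF/RGS4, a difference of 3.89 ± 0.58 (adjusted p = 0.0325, limma), with 2 of 2 PlGF arrays above all 3 arrays so labelled. For Tyrobp the changes were 1.39 and 0.03, a difference of 1.36 ± 0.22 (adjusted p = 0.0421, limma), again with 2 of 2 PlGF arrays above. Such a separation was seen in 12.6% of all genes. The arrays labelled PlGF/RGS4 had Pgf at 210.8 to 300.0, within or below the control range of 211.1 to 387.1, so the comparison is with arrays in which Pgf was not above control.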

How the results depend on the processing

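Of the 7 genes, 2 were called in PlGF versus control and 2 in PlGF versus PlGF/RGS4, and these counts were the same under quantile normalization, median centring, all probe sets, the mean of probe sets, the trended prior and array weights. With a pseudocount of 16 they were 2 and 0. Among genes above the median level, where Fcgr1 and Fcgr4 were not fitted, they were 1 and 1. With only the groups compared, with the methods' t-test and with the ANOVA spread they were 0 and 0. With log2 Xist as a covariate, chosen after the data were seen, they were 4 and 4. Leaving out 1 array gave 0 to 6 in each: 6 without PlGF replicate 2, 2 without PlGF replicate 1 and 0 without any other array. Between PlGF/RGS4 and control the count was 0 under every one of these settings.

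Small changes turned sign. In PlGF/RGS4 versus control, Fcgr1 was -0.02 with array weights and -0.07 to 0.14 with 1 array left out, Fcer1g was -0.23 to 0.03 and Tyrobp -0.06 to 0.08 with 1 array left out. In PlGF versus PlGF/RGS4, Syk was 0.00 with median centring and with the Xist covariate, and -0.05 to 0.16 with 1 array left out. In PlGF versus control no gene of the 7 turned sign under any setting. The cause of these differences was not tested.

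The labels give replicate numbers but no shared litter or day. Deviations of same-numbered arrays correlated at 0.0756, 0.296 and 0.101 between control and PlGF/RGS4 and at -0.217 to -0.134 for pairs with PlGF, and control replicate 3 correlated best with another number, so the numbers were not taken as pairs. With the replicate number as a replicate block, 0 of the 7 genes were called in PlGF versus control, 0 in PlGF versus PlGF/RGS4 and 0 in PlGF/RGS4 versus control, and Syk was -0.04 in PlGF versus PlGF/RGS4. All genes called in PlGF versus control were 27 with the block, against 505 without it.

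Over all genes, 505 were called in PlGF versus control. The count was 131 with array weights, 0 with only the groups compared, 4 with the methods' t-test and 11 with the ANOVA spread. It was 17 to 61 with 1 control array or array labelled PlGF/RGS4 left out. In PlGF versus PlGF/RGS4 it was 237, and 110 among genes above the median level and 138 with a pseudocount of 16. There it was 1 with only the groups compared, 5 with the t-test, 5 with the ANOVA spread and 26 with the block. Leaving out 1 control array or array labelled PlGF/RGS4 gave a count of 11 to 26. In PlGF/RGS4 versus control it was 3, and 0 with all probe sets, with only the groups compared, with the t-test, with the ANOVA spread, with the block and with the Xist covariate, and 0 to 1 with 1 array left out.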
